A study of Mus musculus with 3 samples.

Results

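The transcripts described here encode tumour necrosis factor (TNF) and its lymphotoxin relatives, receptors of this family and the adaptors that the receptors use: Tnf, Lta, Ltb, Tnfrsf1a, Tnfrsf1b, Cd40, Traf1, Traf2, Traf3 and Traf4. They were chosen by symbol, as every probe set that the platform annotation assigns to exactly 1 of these 10 genes. A probe set is a group of short probes that reads 1 transcript. This gave 10 probe sets for 9 genes, among 12588 probe sets that are not controls and 8220 named genes in all. Lta has 2 of these probe sets, no probe set is annotated to Traf3 here, and the expression of Traf3 was not analysed.

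RNA came from LNC, a line of malignant B-1 cells whose source was the lymph node of 1 New Zealand Black mouse, aged 1 year. The array labelled antisense is of cells that received 20 µM of an oligonucleotide antisense to IL-10. The scrambled array is of cells given a scrambled form of that oligonucleotide at 20 µM, which controls for effects of oligonucleotides as such, and the untreated array is of cells given neither, with RNA at 24 h. There is 1 array per group, on a single line, so no difference below has a replicate check and no p-value is given.

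TNF is a cytokine made as a membrane protein and released by cleavage. It binds the receptors encoded by Tnfrsf1a, which carries a death domain, and Tnfrsf1b, which does not. Lymphotoxin alpha, from Lta, binds the same receptors when secreted, and together with lymphotoxin beta, from Ltb, it forms a membrane ligand of another receptor, encoded by Ltbr. CD40 is the receptor through which B cells take help from T cells. The TRAF proteins bind the inner tails of such receptors, directly or through other adaptors, and pass the signal to NF-kB and to stress kinases. IL-10 is known, mostly from macrophages, as a cytokine that restrains the making of TNF, and IL-10 is known as a product of malignant B-1 cells.

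Ltb, Tnf and Lta are neighbours on mouse chromosome 17, in this order. The 250 bases before the annotated gene start are printed for Tnf and Traf2, the members furthest above both control arrays, and for Ltb, which comes next. The sequences are from RefSeq on GRCm38.p6, 5′ to 3′ on the strand of the gene, and capitals mark each match to a loose form of the sites that NF-kB proteins bind (GGG, any 5 bases, then CC) on either strand. Tnf lies on the minus strand and its window is chr17:35202008-35202257, Ltb lies on the plus strand at chr17:35194257-35194506, and Traf2 lies on the minus strand at chr2:25546941-25547190.
Tnf: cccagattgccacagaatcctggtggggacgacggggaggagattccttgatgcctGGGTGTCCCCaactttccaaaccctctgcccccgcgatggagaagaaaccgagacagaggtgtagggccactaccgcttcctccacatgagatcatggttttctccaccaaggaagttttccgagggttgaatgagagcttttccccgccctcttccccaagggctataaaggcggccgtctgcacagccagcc
Ltb: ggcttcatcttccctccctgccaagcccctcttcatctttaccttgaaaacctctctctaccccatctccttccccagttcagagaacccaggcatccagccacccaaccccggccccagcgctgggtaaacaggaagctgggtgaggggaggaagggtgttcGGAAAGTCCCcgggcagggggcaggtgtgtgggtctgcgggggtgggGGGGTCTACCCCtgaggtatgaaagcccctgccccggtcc
Traf2: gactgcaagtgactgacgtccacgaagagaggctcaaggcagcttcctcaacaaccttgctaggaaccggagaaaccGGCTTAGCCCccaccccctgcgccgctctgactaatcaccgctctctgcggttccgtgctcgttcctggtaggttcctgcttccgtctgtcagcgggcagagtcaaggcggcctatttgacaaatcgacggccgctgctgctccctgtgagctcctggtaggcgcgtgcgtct

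The loose motif matched 1 stretch in the Tnf window, on both strands, from -194 to -185 before the start. In the Ltb window it matched an overlapping run from -40 to -29 and GGGACTTTCC on the opposite strand from -87 to -78, and in the Traf2 window it matched GGGCTAAGCC on the opposite strand from -173 to -164. It is common: 45.8% of 32851 such windows hold it, and 8 of the 9 member windows in the table do, Traf3 included and Cd40 not, which has no window there. A stricter form, GGG, any 2 bases and then TTTCC, is in 1.41% of all windows and in 2 of the 9, those of Ltb and Traf3. A match describes letters only and says nothing of what binds there.

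All values below are intensities on a linear scale, which the authors had scaled to a common level, or differences of their log2. Values below a floor of 595.9, set from the spread of values below 0, were set to it before log2 was taken. A probe set passed the filter when it was above the floor on at least 1 array, as 6127 (48.7%) did. Of all probe sets, 36.1% were above it on the 3 arrays. Of the 10 member probe sets, 6 were above the floor on the 3 arrays, 2 on the scrambled array only and 2 on none. To judge error, each probe set was given a yardstick: among the 300 probe sets closest to it in level, 95% had control arrays no further apart than this. It contains any effect of the scrambled oligonucleotide, and it is no yardstick for the difference between these 2 arrays.

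Il10, the target, was higher on the array labelled antisense, at 13946, against 5616 with the scrambled oligonucleotide and 5164 without treatment. Another probe set of this gene read 6341, 3967 and 3393 in the same order, or 1.60-fold and 1.87-fold higher. Il10 RNA was thus not lower on the array labelled antisense, and the arrays do not measure IL-10 protein. Whether the label is right was not tested, and every direction below rests on that label. The 3-prime over 5-prime signal of 18S ribosomal RNA was 8.13 on the array labelled antisense, against 4.48 with the scrambled oligonucleotide and 1.72 without treatment, while that of Actb and Gapdh lay between 0.920 and 1.01. The part of RNA quality in the results was not tested. Scaling to 6 bacterial spike-in controls instead of the common level would raise every value on the array labelled antisense by 0.51 (log2) relative to scrambled and by 0.63 relative to untreated. Differences are therefore given relative to the common level.

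**Figure D1:**
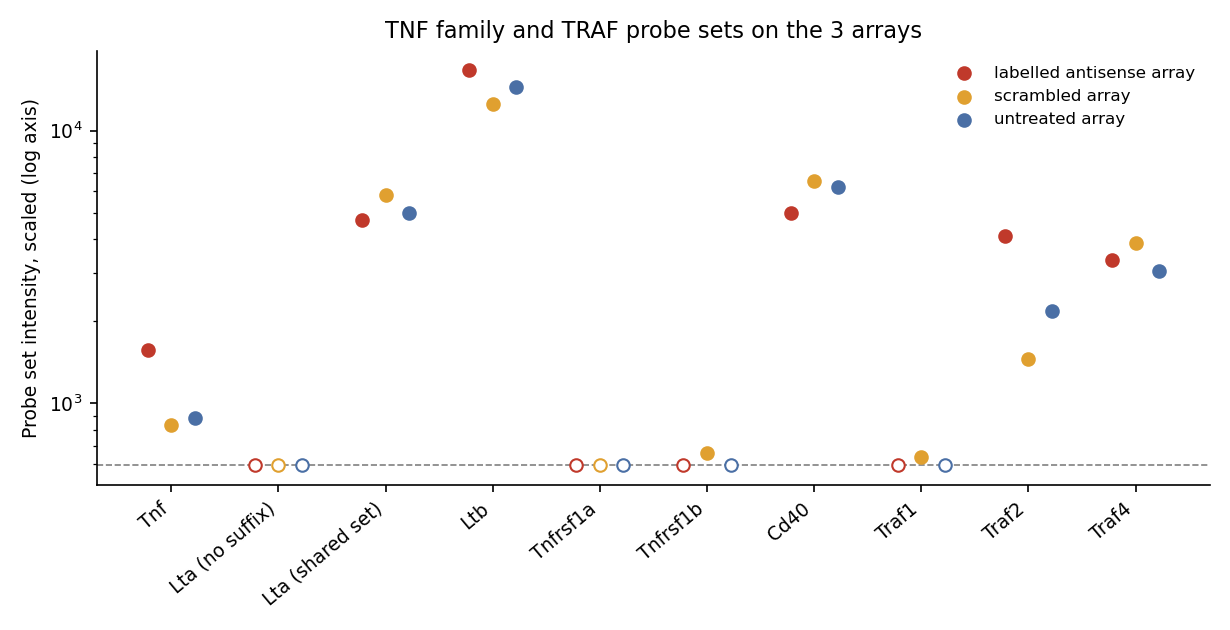
Scaled intensity of the 10 member probe sets on a log axis, 1 point per array; open points at the dashed line are values below the floor of 595.9. Tnf and Traf2 lay above both controls on the array labelled antisense, Ltb slightly so, and Cd40 and the shared probe set of Lta were lower than on both.

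Among the ligands, Tnf on the array labelled antisense exceeded either control, by less than the yardstick at its level. It read 1575 on the array labelled antisense, against 837 with the scrambled oligonucleotide and 886 without treatment. The controls lay close together and the array labelled antisense stood apart from them. The log2 difference was 0.91 from scrambled and 0.83 from untreated, or 1.88-fold and 1.78-fold, against a yardstick of 1.19. Among the 6127 probe sets past the filter, this is place 255 from the top against scrambled and place 272 against untreated. The control values are little above the floor, which limits how well this gene was measured. With a floor of 4 robust standard deviations in place of 2, both differences came to 0.40, since the controls then lie below it.

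TNF is made by macrophages as well as by B cells, so markers of other cells are given beside it. Of 7 myeloid markers on the array, 4 passed the filter, and Adgre1, Itgam and Lyz2, which mark macrophages and granulocytes, were below the floor on the 3 arrays. The summed intensity of the 7, with values below 0 taken as 0, was 3107 on the array labelled antisense, against 3129 with the scrambled oligonucleotide and 4193 without treatment. Cd68, a lysosomal protein of macrophages, read 1331 in a shared probe set against 767.5 and 854.5. Its other probe set, without a suffix, read 188.8 against 535.7 and 215.6, all below the floor. Cd14, a co-receptor for endotoxin, read 1088 against 1563 and 2061. Csf1r, a receptor of macrophage growth factor, was above the floor on the untreated array alone, at -102 on the array labelled antisense, against 460.4 with the scrambled oligonucleotide and 949 without treatment. Mpo, a granule enzyme of neutrophils, was above it on the array labelled antisense alone, at 688 against 338 and 328. Csf1r and Mpo each have another probe set, below the floor on the 3 arrays. The 4 markers past the filter went in different directions, and their part in the Tnf difference was not tested. Of 6 T cell markers, 5 were below the floor on the 3 arrays, among them Cd3e, Cd3d and Cd3g, and the remaining one, Cd4, read 1266 against 2339 and 1349. Of 5 stromal markers, 4 were below the floor, and Col1a1 read 829 against 1006 and 996.5. In bulk RNA, fewer cells of a type and less RNA per cell cannot be told apart.

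Ltb, which anchors lymphotoxin to the membrane, was well above the floor and differed little. It read 16609 on the array labelled antisense, against 12511 with the scrambled oligonucleotide and 14481 without treatment. The array labelled antisense was the highest and the scrambled array the lowest. The log2 difference was 0.41 from scrambled, just past the yardstick of 0.33, and 0.20 from untreated, within it. The 2 controls differed by -0.21, scrambled minus untreated.

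Lta was read by a pair of probe sets of which 1 gave a signal. The suffix of the bright probe set marks it as shared, so it can bind transcripts of more than 1 gene. It read 4709 on the array labelled antisense, against 5796 with the scrambled oligonucleotide and 4992 without treatment. The array labelled antisense was the lowest of the 3 and lay close to untreated. The differences were -0.30 from scrambled and -0.08 from untreated, both within the yardstick of 0.51, and both turned positive with scaling to the spike-in controls, to 0.21 and 0.55. The other probe set read -114, 118 and 179.8 on the same arrays, all below the floor, so Lta rests on the shared probe set alone. Whether the neighbouring genes Tnf, Ltb and Lta differ in direction cannot be read from these arrays, since the differences of Tnf and Lta lie within their yardsticks.

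Neither TNF receptor gave a clear signal. Tnfrsf1a, the receptor with the death domain, read -207 on the array labelled antisense, against 260 with the scrambled oligonucleotide and -267 without treatment, all below the floor. Tnfrsf1b, which binds TRAF2 directly and is found mainly on blood cells, read 520.3, 656 and 431 on these arrays. It passed the filter only through the scrambled array, at 1.10 times the floor. No difference of either receptor can be given, and values below the floor do not show that a transcript was absent.

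On the array labelled antisense, Cd40 was slightly below both controls. It read 4972 on the array labelled antisense, against 6528 with the scrambled oligonucleotide and 6238 without treatment. The controls were close to each other, with a difference of 0.07. The log2 difference was -0.39 from scrambled and -0.33 from untreated, both within the yardstick of 0.46, and with scaling to the spike-in controls these became 0.12 and 0.30. Of the 4 B cell markers above the floor, 3 were lower on this array as well. Of all probe sets above the floor on the 3 arrays, 36.4% were lower than both controls. With so few markers this count is a description. Ms4a1, which encodes CD20, read 31106 on the array labelled antisense, against 44803 with the scrambled oligonucleotide and 44237 without treatment. Cd79a, a signalling chain of the B cell receptor, read 21473, 30469 and 27790.1, and both genes were lower by more than the yardstick against both controls. The log2 differences were -0.53 and -0.51 for Ms4a1 and -0.50 and -0.37 for Cd79a, which is near or under the spike-in shift of 0.51 and 0.63 given above. The other B cell markers above the floor were Pax5, at -0.27 from scrambled and -0.11 from untreated, and Cd79b, at 0.15 and 0.11. The summed intensity of the 7 B cell markers measured was 61852 on the array labelled antisense, against 86031 with the scrambled oligonucleotide and 82047 without treatment. Whether the Cd40 difference follows these markers was not tested. Cd5 and Spn, which mark B-1 cells, and Cd22 were below the floor on the 3 arrays, each with 1 probe set, so the markers that set B-1 cells apart were not measured above background.

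Traf2 stood furthest apart among the adaptors, and among all members. Its product joins TNF receptors to the ubiquitin ligases Birc2 and Birc3 and so to NF-kB and the kinase JNK. It read 4097 on the array labelled antisense, against 1456 with the scrambled oligonucleotide and 2189 without treatment. The array labelled antisense was the highest, and the controls themselves were apart, with scrambled the lowest. The log2 difference was 1.49 from scrambled and 0.90 from untreated, or 2.81-fold and 1.87-fold, both past the yardstick of 0.68. This is place 49 from the top of the 6127 against scrambled and place 219 against untreated. The scrambled array differed from untreated by -0.59, and the 2 differences of Traf2 lie apart by this amount. The probe set has no suffix and is the only one annotated to Traf2, so no other probe set of the gene can be set beside it.

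Traf4, an adaptor known more from development and epithelia than from TNF receptors, lay between the controls on the array labelled antisense. It read 3350 there, 3889 with the scrambled oligonucleotide and 3064 without treatment. The differences were -0.22 from scrambled and 0.13 from untreated, within the yardstick of 0.64, and the first became 0.30 with scaling to the spike-in controls. The largest of the 3 differences of Traf4 was that between the controls, at 0.34. Traf1, an adaptor that NF-kB is known to induce and that pairs with TRAF2, read 513 on the array labelled antisense, against 637 with the scrambled oligonucleotide and 568 without treatment. It passed the filter only through the scrambled array, and no difference can be given.

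**Figure D2:**
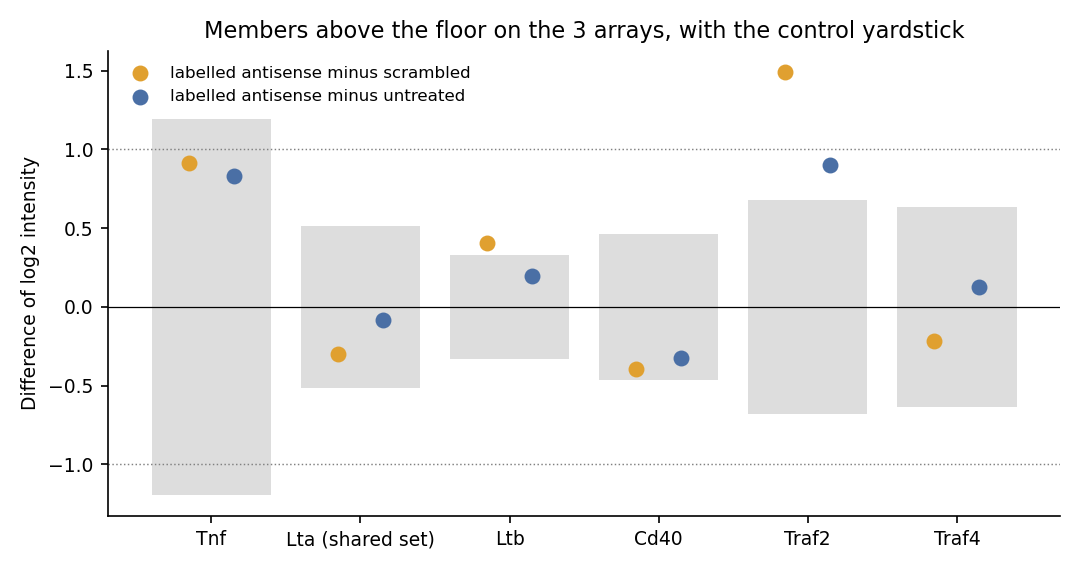
Difference of log2 intensity, labelled antisense minus scrambled (left point of each pair) and minus untreated (right point), for the 6 member probe sets above the floor on the 3 arrays; grey bars are the yardstick on either side of 0 and dotted lines mark 2-fold. Both Traf2 points lie outside its bar, 1 of the 2 Ltb points does, and the other points lie inside.

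Counted over the members, no probe set was 2-fold apart from both controls in the same direction. Of all probe sets past the filter, 1.35% were so in the upward and 1.06% in the downward direction. Against scrambled alone 1 of the 8 member probe sets past the filter, that of Traf2, was at least 2-fold higher and none was at least 2-fold lower, where 3.2% and 2.82% of all were. With so few probe sets, 1 call makes 12.5%, so this count does not set the members apart. Against untreated none was at least 2-fold higher or lower, where 2.64% and 2.2% of all were.

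By the yardstick, 1 member probe set of 8 was higher than both controls, again that of Traf2, and none was lower, where 2.76% and 2.5% of all probe sets past the filter were. Against scrambled, Ltb and Traf2 exceeded it upwards, where 5.37% of all did, and no member did so downwards, where 5.75% did. Against untreated Traf2 alone exceeded it upwards, where 4.88% did, and no member downwards, where 4.08% did. Of the 6 member probe sets above the floor on the 3 arrays, 3 were higher than both controls by any amount, 2 were lower and 1 lay between, where 37.5%, 36.4% and 26.1% of 4539 such probe sets did. The median difference of the 6 was 0.10 from scrambled and 0.16 from untreated, beside 0.00 and 0.01 over the 4539. Over all 10 member probe sets, with values below the floor at the floor, the medians were -0.05 and 0.00. Over all 12588 they are fixed at 0.00 and 0.00, since only 48.7% passed the filter. The comparisons share the array labelled antisense, so agreement between them is no repeat of a measurement.

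**Figure D3:**
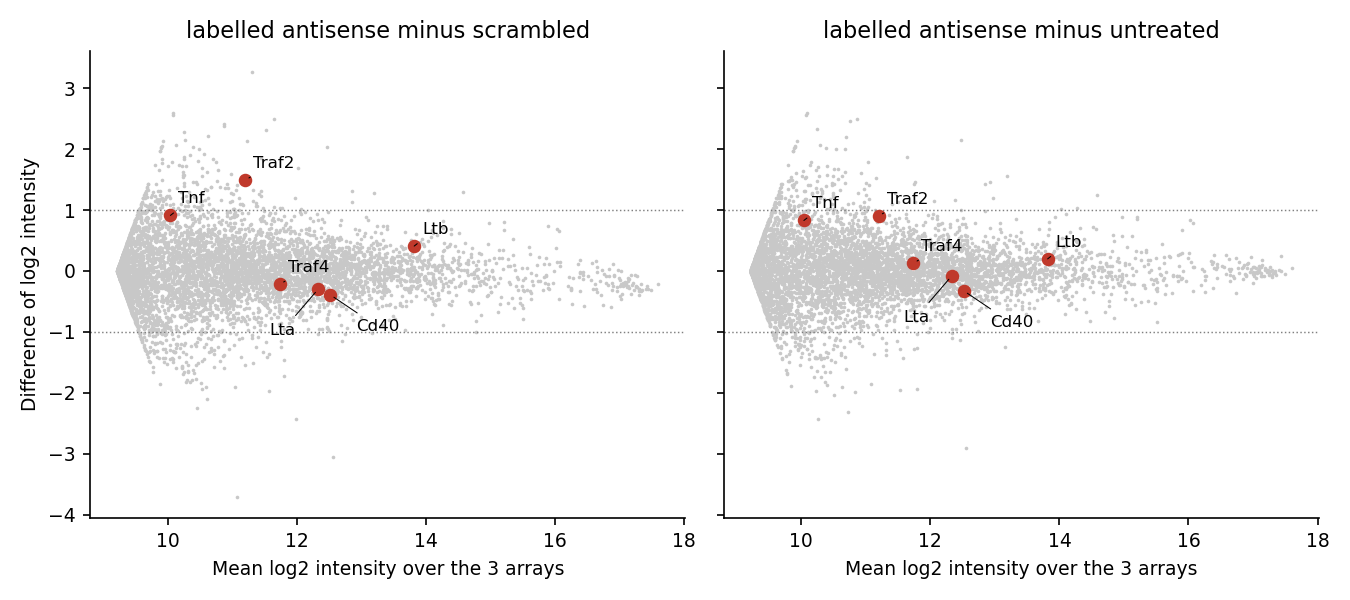
Difference of log2 intensity against the mean log2 intensity over the 3 arrays for the 6127 probe sets past the filter (grey) and the 6 member probe sets above the floor on the 3 arrays (red); dotted lines mark 2-fold. Against scrambled Traf2 lies above most grey points at its level, Tnf lies in the dim range where the grey points spread widest, and Lta, Cd40, Ltb and Traf4 lie within 0.41 of 0 on both panels.

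Between the controls, no member was 2-fold apart, where 1.7% of all probe sets were that far up on the scrambled array and 1.4% that far down. The furthest was Traf2, at -0.59, scrambled minus untreated, followed by Traf4 at 0.34. Lta differed by 0.22 in the shared probe set, Ltb by -0.21, Tnf by -0.08 and Cd40 by 0.07, and that of Tnf became 0.03 with scaling to the spike-in controls. The median over the 6 probe sets above the floor on the 3 arrays was -0.01.

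The wider pathway was followed in 5 gene lists with 103 genes, of which 79 were measured and 43 passed the filter, each gene read by its brightest probe set. Of the 31 genes above the floor on the 3 arrays, 18 exceeded both controls on the array labelled antisense, 5 were lower and 8 lay between, or 58.1% higher and 16.1% lower, beside the 37.5% and 36.4% of all probe sets given above. Of the 43 past the filter, 23 (53.5%) were higher than both and 6 (14%) lower, beside 37.2% and 32% of all probe sets past it, and 4 of the 43 passed through the array labelled antisense alone. At the 2-fold level 2 of the 43 genes were higher than both controls, Nfkbia and Ier3, and none was lower. Of all probe sets past the filter, 1.35% were that much higher and 1.06% that much lower. A count of 2 does not set the lists apart. The lists were made with earlier results of these arrays known, so their balance is a description. It is relative to the common level, and the spike-in scaling would move every gene above the floor upwards by the shift given above.

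Of 15 other ligands of the family, 9 were measured and 6 of these were below the floor on the 3 arrays, among them Fasl, Tnfsf10 and Cd40lg. Of all 12588 probe sets, 48.7% were above it on at least 1 array. Cd70, the ligand of CD27, read 1585 on the array labelled antisense, against 832 with the scrambled oligonucleotide and 749 without treatment, with differences of 0.93 and 1.08. Tnfsf9, the ligand of 4-1BB, read 2142 against 1289.6 and 1210.3, with differences of 0.73 and 0.82. All 4 differences lay within the yardstick at these levels, as did those of Tnf. Eda, a ligand of skin appendage development, was above the floor on the array labelled antisense alone, at 711. It could pass only by being higher there, and its other probe sets were below the floor on the 3 arrays.

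Of 20 other receptors, 12 were measured and 9 were below the floor on the 3 arrays, among them Fas, Tnfrsf17 and Tnfrsf18. None of the 12 was above the floor on the 3 arrays. Of all 12588 probe sets, 48.7% were above it on at least 1 array and 36.1% on the 3. Ltbr, the receptor of membrane lymphotoxin, passed through the array labelled antisense alone, at 835 against 438 and 395. Cd27, the receptor of CD70, passed only through the scrambled array, with 34 on the array labelled antisense, against 861 with the scrambled oligonucleotide and 529 without treatment. Its other probe set was below the floor on the 3 arrays. Tnfrsf11a, which encodes RANK, read 625 on the array labelled antisense, against 424 with the scrambled oligonucleotide and 961 without treatment. Its difference from untreated was -0.62, within the yardstick of 0.84.

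Of 31 adaptors and kinases downstream of the receptors, 23 were measured and 16 passed the filter, 5 higher than both controls and 2 lower, where 37.2% and 32% of all probe sets past it were. With scaling to the spike-in controls, which raises all values on the array labelled antisense, these counts became 12 and 0. With a floor of 4 robust standard deviations they became 3 and 2. The shares of all probe sets hold for the reported setting, and none is given for either alternative. Birc2, a ubiquitin ligase that TRAF2 binds, read 4676 on the array labelled antisense, against 2928 with the scrambled oligonucleotide and 2945 without treatment. Its differences of 0.68 and 0.67 were slightly past the yardstick of 0.64, the only gene of this list past it against both. Tank, a TRAF-binding protein, read 3662 against 2077 and 2862, with differences of 0.82, past the yardstick of 0.65, and 0.36, within it. As for Traf2, the scrambled array was the lowest for Tank. Tnip1, which restrains NF-kB together with A20, differed by -0.67 and -0.38, both within the yardstick, and the second is smaller than the spike-in shift of 0.63. Tab2, an adaptor of the kinase TAK1, was above the floor on the array labelled antisense alone, at 924 against 125 and 156. It was at least 1.55-fold higher, a bound within its yardstick of 1.63-fold, and could pass only by being higher there. Traf6 differed by 0.16 and 0.21 in its brightest probe set, and Traf5, Tradd, Birc3 and Tnfaip3 were below the floor on the 3 arrays.

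Of 9 NF-kB subunits and inhibitors, 8 were measured and 7 passed the filter. Of these, 4 were higher than both controls and 1 lower, where 37.2% and 32% of all probe sets past the filter were. With scaling to the spike-in controls, which raises all values on the array labelled antisense, the counts became 5 and 1. With a floor of 4 robust standard deviations they became 4 and 0. Both shares of all probe sets are those of the reported setting alone. Nfkbia, which encodes the inhibitor that NF-kB induces to limit itself, was higher by 1.01 and 1.02, past the yardstick of 0.35, and its second probe set by 0.73 and 0.86. Nfkbie, a related inhibitor, was 2.47-fold higher than scrambled, past the yardstick of 2.35-fold, and 1.92-fold higher than untreated, within it. Nfkb2, the precursor of the p52 subunit on the branch that TRAF2 and TRAF3 hold in check, read 3344 on the array labelled antisense, against 2333 with the scrambled oligonucleotide and 1889.8 without treatment. Its differences were 0.52, within the yardstick of 0.75, and 0.82, past it. Bcl3, a nuclear partner of NF-kB, went the other way, at 358 on the array labelled antisense against 1002 and 1748. This makes it at least 1.68-fold lower than scrambled and at least 2.93-fold lower than untreated. The yardstick is 2.28-fold, so the first bound lies within it and the second past it. The controls themselves lay 1.74-fold apart, with untreated the higher. The median over the 8 measured genes, with values below the floor at the floor, was 0.12 from scrambled and 0.30 from untreated. In each of the other lists it was 0.00 and 0.00, which is fixed for the ligands, with 6 of 9 at the floor, and the receptors, with 9 of 12. Over genes past the filter alone, the medians were 0.24 and 0.32 here, 0.73 and 0.82 for the ligands and 0.28 and 0.23 for the targets. For the receptors they were 0.07 and 0.00, and for the adaptors and kinases -0.01 and 0.10, so this list does not stand apart. Over all 12588 probe sets the median with values at the floor is fixed at 0.00, since only 48.7% passed the filter, so it sets no scale for this list.

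Of 28 known targets of TNF and NF-kB, 27 were measured and 14 passed the filter, 10 higher than both controls and 3 lower, where 37.2% and 32% of all probe sets past it were. With scaling to the spike-in controls, which raises all values on the array labelled antisense, these counts became 14 and 0. With a floor of 4 robust standard deviations they became 7 and 2. Here too the shares of all probe sets are those of the reported setting alone. Of the 10 higher genes in the reported setting, only 1, Ier3, was past its yardstick against both controls. The 3 lower genes, Irf1, Cd80 and Sod2, lay within their yardsticks. Sod2 was level with scrambled, at 1633 against 1634, and read 2400.4 without treatment. Ier3, a survival gene, read 2831 on the array labelled antisense, against 1258 with the scrambled oligonucleotide and 999 without treatment, or 2.25-fold and 2.83-fold higher, past the yardstick. Bcl2l1, which encodes Bcl-xL, differed by 0.72, within the yardstick of 0.82, and by 1.34, past it. Its other probe set was below the floor on the 3 arrays. Cd44, an adhesion receptor, read 1006 against 503 and 625 in a shared probe set, with the scrambled value below the floor. Its differences of 0.75, a lower bound, and 0.69 lay within the yardstick of 0.85. The other Cd44 probe sets were below the floor on the 3 arrays. Ccl3, a chemokine, read 913 against 234 and 73.0, at least 1.53-fold higher than either control, a bound within its yardstick of 1.61-fold. It was above the floor on the array labelled antisense alone, so it could pass, and count among the 10, only by being higher there. The classical inflammatory targets Il6, Il1b, Ptgs2, Ccl2, Cxcl1 and Cxcl10 were below the floor on the 3 arrays. Ccl22, a chemokine of B cells and dendritic cells, read 55460.3 on the array labelled antisense, against 58039 with the scrambled oligonucleotide and 46651 without treatment, with differences of -0.07 and 0.25.

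**Figure D4:**
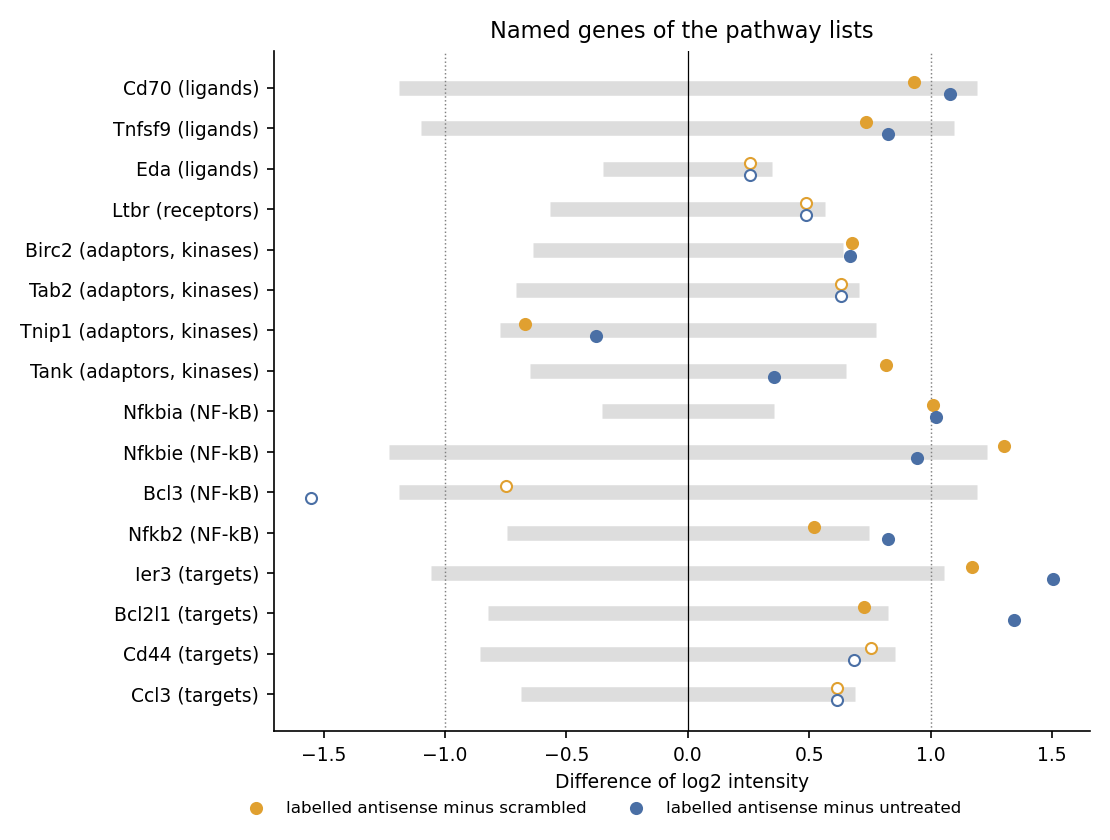
Difference of log2 intensity, labelled antisense minus scrambled (upper point) and minus untreated (lower point), for the genes named by rule from the 5 lists; open points have a value below the floor on at least 1 array, grey bars are the yardstick and dotted lines mark 2-fold. Nfkbia, Ier3 and Birc2 lie past their bars in both comparisons, while Bcl3 and Tnip1 are the only genes shown to the left of 0.

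Scaling to the spike-in controls moved the members together. Under it Tnf differed by 1.42 from scrambled and 1.46 from untreated and Traf2 by 2.01 and 1.53, so that both were past 2-fold against both controls. Relative to the common shift of 0.51 and 0.63, these values are those given above.

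**Figure D5:**
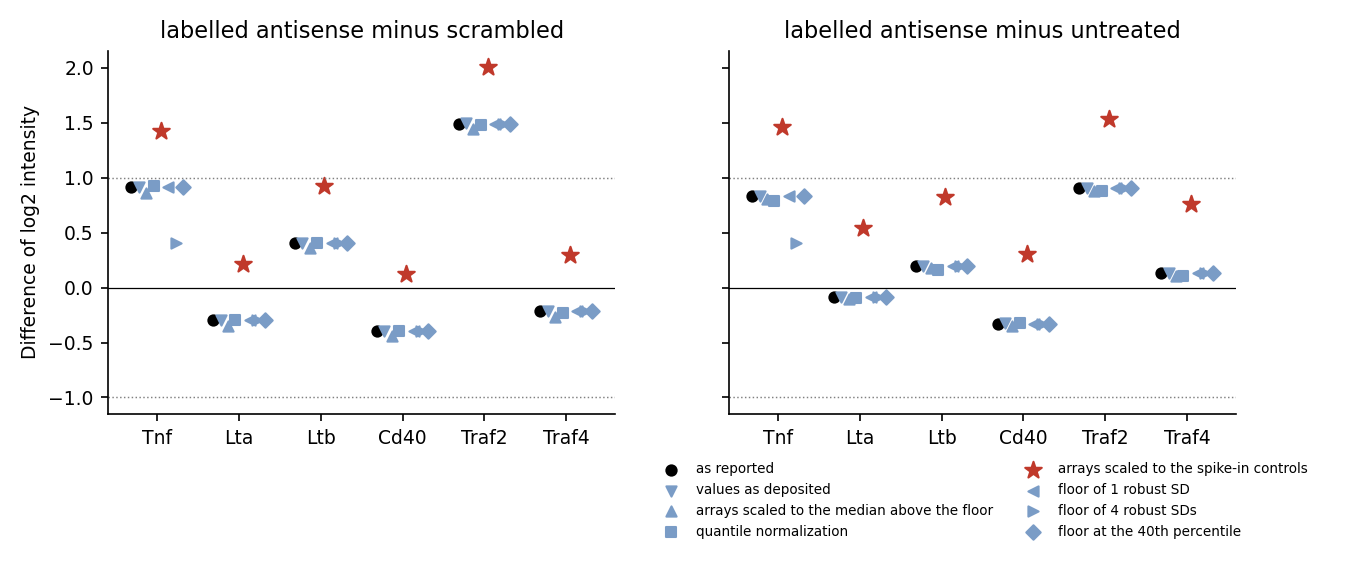
Difference of log2 intensity of the 6 member probe sets above the floor on the 3 arrays under the reported setting (black) and 7 alternatives of scaling and floor. Scaling to the spike-in controls (red stars) lifts each member by the same amount and turns Lta and Cd40 positive in both panels and Traf4 positive against scrambled, and a floor of 4 robust standard deviations lowers Tnf to 0.40; the other points lie close to the black ones.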

How the data were processed

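The data are 3 Affymetrix oligonucleotide arrays of mouse genes, with 1 array per group, grouped by their titles and descriptions. The deposited table holds, for each probe set, a linear intensity that the authors computed, and per the values the mean after removal of 2% at each end is 1500.0 on each array. Values at or below 0 made up 24.8% to 27.9%. How it was computed and with which software was not given in the sources used here.

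Each array was rescaled to a common trimmed mean (2% from each end) over 12588 probe sets that are not controls, then floored at 595.9, which is 2 robust standard deviations of values below 0, and log2 was taken (Python 3.11.15, numpy 2.4.6, pandas 2.3.3). The log2 step was not applied to the deposited values by the authors. The floor follows an earlier analysis of these arrays. The number of arrays limits precision and no test was run. Exactly 1 symbol was listed for 10276 probe sets, several for 363 and none for 1949, and of the first 10257 matched the RefSeq gene table by gene identifier.

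The members and lists were chosen with earlier results of these data known. Named genes are all member probe sets and, per list, up to 4 genes furthest from both controls in 1 direction, other genes being named after their values were seen. The counting was tested on simulated data with changes well past 2-fold and the same noise at every level above background. It therefore says nothing of dim probe sets such as that of Tnf. Alternatives changed the scaling, floor, filter, fold and probe sets.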

Additional observations from a re-analysis of the deposited data

How the results depend on the processing

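The count of member probe sets at least 2-fold apart from both controls, 0 as reported, became 2 with scaling to the spike-in controls, 2 at 1.5-fold (Tnf and Traf2 in both cases) and 1 by the yardstick (Traf2), and stayed 0 under the other settings run. Of all probe sets past the filter, 1.35% were 2-fold higher than both controls as reported and 1.06% lower. By the yardstick 2.76% were higher and 2.5% lower. With spike-in scaling 524 of 6259 past the filter were 2-fold higher and 19 lower. No share of all is given at 1.5-fold, so that count has no scale. Of 210 member differences recomputed under 7 alternatives, the spike-in scaling moved 9 of 30 by more than the yardstick, a floor of 1 robust standard deviation 3 and a floor at the 40th percentile 5, and the others none. With spike-in scaling 8 member differences changed sign, namely both of the shared Lta probe set and of Cd40, those of Traf4, Tnfrsf1b and Traf1 from scrambled, and that of Tnf between the controls, and none did under the other 6. The median over the 10 member probe sets ran over these settings between -0.26 and 0.20 from scrambled and between 0.00 and 0.42 from untreated. Over all probe sets, 83 were 2-fold higher than both controls and 65 lower (56.1% higher), against 524 and 19 with spike-in scaling (96.5%), 37 and 15 with a floor of 4 robust standard deviations (71.2%), 191 and 182 with a floor of 1, and 344 and 340 with the floor at the 40th percentile. The cause was not tested. Signal over background limits Tnf, Tnfrsf1b and Traf1, which lie near or at the floor.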

Other observations

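Some pathway genes were read by more than 1 probe set, and 4 of them, chosen after their values were seen, are given here. Those of Relb and Junb disagreed against untreated, and those of Ikbkg and Cd83 went the same way against scrambled. Relb, an NF-kB subunit, read 341 on the array labelled antisense, against 553 with the scrambled oligonucleotide and 1116 without treatment in 1 probe set, and 877 against 474 and 88 in a family probe set. Junb, a transcription factor gene, differed by 0.30 from scrambled and -1.34 from untreated in its dimmer probe set by mean log2 level, and by 0.20 and 0.07 in the other. Ikbkg, a subunit of the kinase that releases NF-kB, was brightest on the scrambled array in both probe sets, and 1 of them read 255 on the array labelled antisense, against 1247 with the scrambled oligonucleotide and 246 without treatment. Cd83, an activation marker of B cells, differed by 0.41 and 0.72 in its brighter probe set and by 0.21 and 0.17 in the other.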
